A study of Caenorhabditis elegans with 45 samples.

Results

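Post-dauer larvae of Caenorhabditis elegans were compared with continuously grown larvae in the second of 2 matched developmental cycles, 17 to 22 h after dauer larvae were given food. The comparison was chosen by hour: the 6 libraries of the dauer-exit course at 17, 18, 19, 20, 21 and 22 h were paired with the 6 libraries of the continuous course at sample-name hours 31 to 36, at a constant offset of 14 h. These are 12 of 45 libraries of the series. For a few genes, levels are also given from 7 libraries of continuously grown glp-4(bn2) mutants, taken from 40 to 52 h. Both courses used N2, the standard laboratory strain, carrying no transgene or mutation, and whole worms were washed off agar plates seeded with the food bacterium OP50. Continuous worms hatched overnight and were plated as first-stage larvae, whereas the other course began with dauer larvae, and its hour 0 is the return to food. Per the labels, the continuous worms grew slowly, so that their sample-name hours 31 to 36 were in fact 32 to 37 hours in development. All hours and offsets below are in sample-name hours. The labels name no larval stage, sex or temperature. A first matched cycle, post-dauer 9 to 14 h with continuous 23 to 28 h, has the same offset, lies 8 h earlier and shares no library with the second. It served as the base line for convergence.

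Dauer is an alternative larval stage that forms under crowding and hunger, with a sealed mouth, a special cuticle and a metabolism set for survival. On food, dauer larvae resume development, molt into the last larval stage and then into fertile adults. During each larval cycle the epidermis builds a new cuticle in a fixed order of collagen genes, while the germline makes sperm in the last larval stage and oocytes around the adult molt, and the intestine starts to make yolk.

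The libraries held 20393594 to 23904100 counted reads in the post-dauer course and 26589702 to 43984242 in the continuous course. There was 1 library per hour and 1 course per side, so each p-value measures only how steadily the 6 hourly differences pointed one way, and the course cannot be told apart from anything else that differed between both cultures. The continuous 35 h library stood slightly apart, with 28.7% of its reads in its 100 most abundant genes against 23.5% to 26.3% in the other 11. Values are CPM, reads of a gene per 1000000 counted reads of the library. They give shares of whole-worm RNA, in which fewer cells of a type and less RNA per cell cannot be told apart. Fold changes are post-dauer over continuous on the log2 scale from a fit with the matched hour as a block. A gene is called where its adjusted p (edgeR's quasi-likelihood test, Benjamini-Hochberg) is below 0.05 and its fold change is at least 2.

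Both windows ran across the approach to adulthood. The collagen col-19, an adult cuticle gene, stood at 1.17 CPM in the lowest post-dauer library, at a median of 370 and at 2120 in the highest, and at 0.263, 197 and 2300 CPM in the continuous ones. The yolk protein gene vit-2 spanned 90.1 to 11500 CPM in the post-dauer libraries and 108 to 8010 CPM in the continuous ones. Transcripts of the dauer cuticle gene cut-1 and of the small heat shock gene hsp-12.6 were near 0 in both windows, with medians of 0.269 and 0.113 CPM for cut-1 and of 0.118 and 0.101 CPM for hsp-12.6, and too low to be tested.

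Most genes lay close together in both courses. Of 14923 genes tested, 271 were called higher in post-dauer larvae (1.82%) and 245 lower (1.64%). With library size alone as the scale, these counts were 373 and 172, and the median of all fold changes moved from -0.05 to 0.07. For 12508 genes (83.8%) the 95% interval of the fold change lay wholly within 2-fold. Without the fold threshold, 4858 genes had an adjusted p below 0.05, so small steady differences were common. Of the 516 genes called in either direction, 433 had the same sign in all 6 matched hours.

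Many of the genes called were weakly expressed. A mean of at least 5 CPM in the higher course was reached by 53.5% of the genes called higher and 42% of those called lower, against 74.6% of all genes tested. Chromosome V held 19.3% of the genes tested, 35.4% of those called higher and 28.6% of those called lower. Chromosome III held 15.3%, 5.9% and 6.12%.

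At the 14 h offset, the tails of the distribution drew in relative to the first cycle while its centre stayed. Among 13262 genes tested in both cycles, the share with an interval within 2-fold went from 76.7% to 86.5%, and the 90th percentile of the absolute log2 fold change went from 0.755 to 0.626. The median absolute log2 fold change was 0.241 in the first cycle and 0.243 in the second. In the first cycle, 160 of 13554 genes were called higher (1.18%), 337 lower (2.49%) and 10280 lay within 2-fold (75.8%).

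Of the genes tested in both cycles, 473 were called in the first and 315 in the second. The 137 called in both, which is 29% of the first list and 43.5% of the second, had the same direction throughout. Another 186 of the 473 (39.3%) had an interval within 2-fold in the second cycle. Of the 327 genes called lower in the first cycle 144 had come within 2-fold, and of the 146 called higher 42 had. The plot of both cycles' fold changes shows these movements. Since these genes were picked by their calls in the first cycle, the counts that came within 2-fold cannot by themselves show convergence. The reverse count, of second-cycle calls that lay within 2-fold in the first cycle, was not made.

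**Figure D1:**
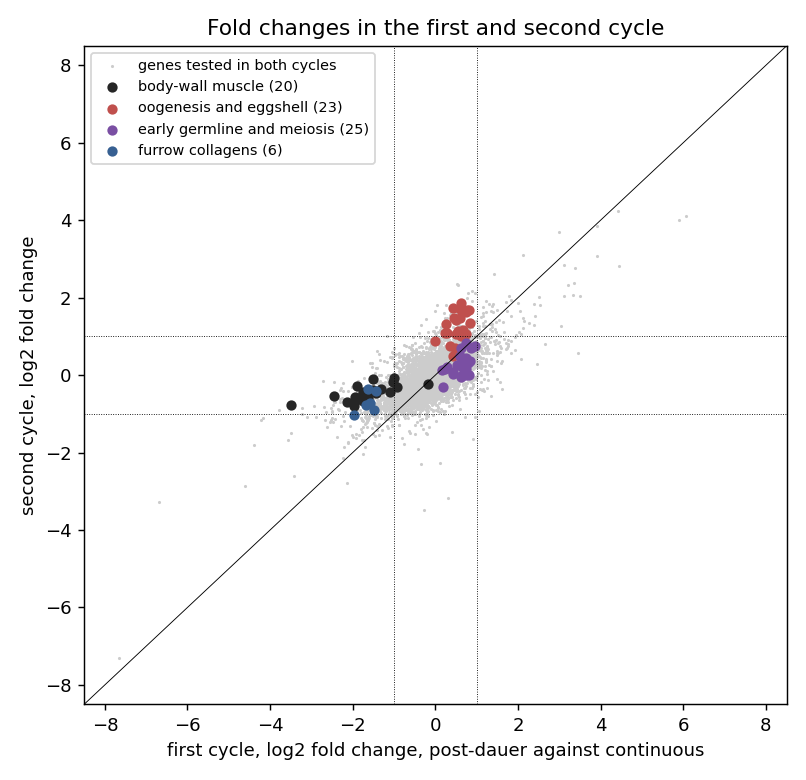
Log2 fold change of each gene tested in both cycles, first cycle on the x axis and second on the y axis, with 4 gene lists in colour, dotted lines at 2-fold and the line of equal change. Body-wall muscle genes lie left of the line of equal change near 0 on the y axis, oogenesis genes lie above it, and early germline genes lie below it.

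The difference between cycles was tested itself, as the interaction of course and cycle over 24 libraries. It was called for 109 of 15360 genes (0.71%). At an unadjusted p below 0.05 there were 2517, and 293 were called by DESeq2. The count hung on the match of hours, with 1039 called at an offset of 15 h and 14 without the hour as a block. Of the 86 called genes with a value in each cycle, 48 had a smaller difference in the second cycle and 38 a larger one. The count was 38, 42 and 32 without the 18 and 10 h, the 19 and 11 h, and the 20 and 12 h pairs and 204 without the 22 and 14 h pairs.

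Whole profiles were also set against each other. The median absolute difference in log2(CPM + 1) over all genes was 0.24 between 17 and 31 h, 0.217 between 18 and 32 h, 0.253 between 19 and 33 h, 0.266 between 20 and 34 h, 0.308 between 21 and 35 h and 0.286 between 22 and 36 h. The median of these distances was 0.26, against 0.252 in the first cycle (range 0.218 to 0.32). At an offset of 15 h the order turned, with medians of 0.2 in the second cycle and 0.225 in the first. Neighbouring hours of one course were 0.131 to 0.227 apart, so 5 of the 6 matched pairs were farther apart than any neighbours. These distances are a description, with no test.

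**Figure D2:**
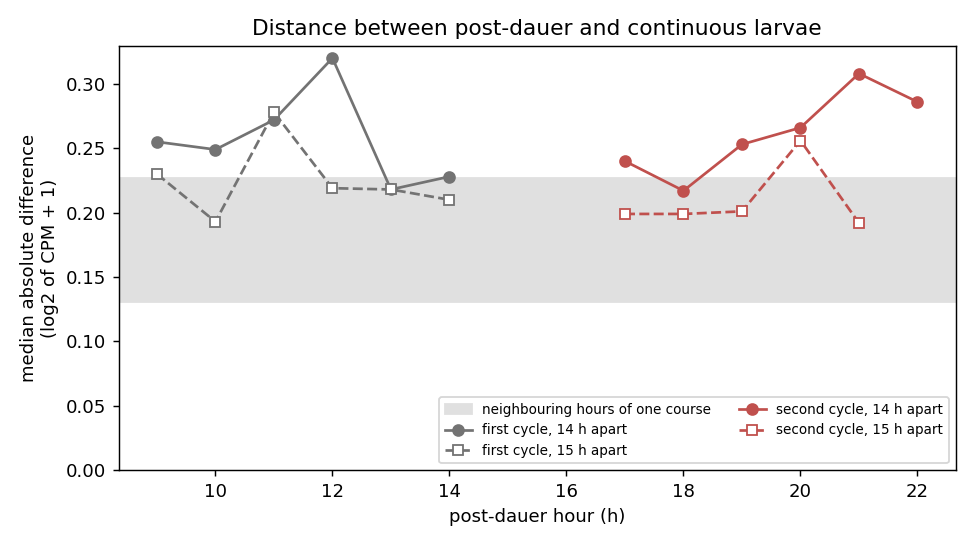
Median absolute difference between paired libraries, in log2 of CPM + 1 over all genes, by post-dauer hour, for pairs 14 h apart (filled) and 15 h apart (open) in the first and second cycle. The grey band spans the distances of neighbouring hours within each course; the second cycle at 15 h falls into it at 4 of 5 hours.

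The hour of best match was later than the pairing assumed. Across genes, each post-dauer library from 17 to 21 h correlated best with the continuous library 1 h after its partner, with r from 0.914 at 17 h to 0.962 at 21 h, against 0.884 to 0.933 with the partner itself. The 22 h library had no later partner. An offset of 15 h set post-dauer 16 to 21 h against continuous 31 to 36 h, so its libraries are not all those of the 14 h match. There the median distance was 0.2 and 13712 genes lay within 2-fold. At this offset 167 genes were called higher and 224 lower, 287 of them among those called at 14 h. Several results below are given at both offsets, and those given at 14 h alone may also depend on the match.

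The clearest difference in the second cycle lay in the germline. Of 28 genes of oogenesis and the eggshell, 22 were called higher in post-dauer larvae and none lower, with a median log2 fold change of 1.16 against -0.05 over all genes. Together they took 0.13% of the reads in the lowest post-dauer library, 0.335% at the median and 0.82% in the highest, against 0.0579%, 0.128% and 0.351% in the continuous ones. The ranges overlap, since levels climb through both windows, but each post-dauer library was above its partner.

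The eggshell proteoglycan gene cpg-2 stood at 121, 410 and 1080 CPM in the lowest, median and highest post-dauer library and at 33, 97.5 and 360 CPM in the continuous ones. It was higher in 6 of 6 matched hours, with a log2 fold change of 1.70 ± 0.12 (SE, n = 6 hours) and an adjusted p of 0.000199. Among RNA-binding proteins that silence maternal messages, pos-1 reached a median of 72.5 CPM against 17.9 CPM (1.85 ± 0.06) and puf-5 one of 94.6 CPM against 22.4 CPM (1.72 ± 0.08). meg-1, which encodes a P granule protein, reached 44.1 CPM at most against 6.92 CPM, with a log2 fold change of 2.19 ± 0.31. The members that missed the threshold were also above 0, from 0.50 ± 0.09 for cey-3 to 0.88 ± 0.10 for mex-3, and meg-2 had a wide interval (-0.08 to 1.79).

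At the 14 h offset the oogenesis difference was larger than in the first cycle, where none of 23 genes tested was called and the median was 0.54. The interaction was called for 5 of 28 genes, namely cpg-2, oma-2, pos-1, puf-11 and puf-5, all in the direction of a larger difference, and pos-1 had the smallest adjusted p (0.000155, interaction 1.27 ± 0.10). At 15 h the interaction was called for none of the 28, with a list median of 0.44 against 0.75 at 14 h, and for none without the hour as a block (median 0.80). lin-41, a heterochronic gene whose protein also acts in oocytes, had a log2 fold change of -0.01 ± 0.14 in the first cycle and 1.09 ± 0.11 in the second (adjusted p of the interaction 0.0115). At 15 h the second-cycle value of lin-41 was 0.75, below the fold threshold. The second-cycle oogenesis difference became smaller at wider offsets, which take earlier post-dauer hours. At 15 h 6 genes were called higher and the median was 0.71. At 16 h, an offset added after the data were seen, none was called higher and the median was 0.30. Without the hour as a block none was called, while the median was 1.26 and cpg-2 stood at 1.54 (adjusted p 0.182).

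Other germline genes differed less. Of 26 genes of the early germline and meiosis 1 was called, nos-2, an RNA regulator of germ cells, at a median of 4.03 CPM against 0.715 CPM (2.05 ± 0.30). Of the others, 24 lay within 2-fold, beside 83.8% of all genes, and the list median was 0.28, after 0.64 in the first cycle. Still, 23 of the 26 lay above 0. At an adjusted p below 0.05 without the fold threshold, 16 were higher and 1 lower, beside 4858 of all 14923 genes in either direction. gld-1, which encodes a translational repressor of the meiotic germline, stood at 275, 452 and 603 CPM against 128, 235 and 372 CPM, with a log2 fold change of 0.75 ± 0.09. Of the chromosome axis and synapsis genes, 3 are given as examples, chosen after their values were seen. him-3 had a fold change of 0.81 ± 0.06 in the first cycle and 0.01 ± 0.08 in the second. For htp-3 the values were 0.63 ± 0.07 and -0.05 ± 0.06, and for syp-1 0.73 ± 0.05 and 0.16 ± 0.06. All 3 were below the list median of 0.28 in the second cycle. The interactions of these 3 genes had adjusted p-values of 0.00447, 0.00212 and 0.00808 but were below the 2-fold size needed for a call.

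Sperm genes and cell cycle genes leaned the same way by less. Of 36 spermatogenesis genes 27 lay within 2-fold and 1 was called higher, ssp-10, a member of a sperm-specific family, at a median of 113 CPM against 46.3 CPM (1.05 ± 0.13). The median of that list was 0.40. Of 16 major sperm protein genes tested, 15 lay within 2-fold. Of 23 genes of DNA replication and the cell cycle 20 lay within 2-fold, and the 2 called higher were the near-identical B-type cyclin genes cyb-2.1 (1.39 ± 0.08) and cyb-2.2 (1.39 ± 0.07), whose reads may be shared. All 30 genes of small RNA pathways and all 19 of histone methylation lay within 2-fold. Over all genes 83.8% did, a larger share than of the spermatogenesis genes. At an adjusted p below 0.05 without the fold threshold, 16 of the 23 replication and cell cycle genes were higher and none lower. The counts were 13 higher and 1 lower for small RNA pathways, 7 and 2 for histone methylation, and 15 and 2 for spermatogenesis. Over all 14923 genes, 4858 passed in either direction.

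Yolk genes, which are expressed in the intestine, were not resolved. None of the 6 vitellogenin genes was called, 3 lay above 0 and 3 below with a median log2 fold change of 0.03, and only 3 had an interval within 2-fold. Together they took 0.0287% and 0.0296% of post-dauer reads at 17 and 18 h against 0.0417% and 0.0393% in their partners. From 19 to 22 h the post-dauer shares were higher, at 0.175%, 0.816%, 1.48% and 2.65% against 0.0604%, 0.428%, 1.47% and 2.07%. vit-6 had medians of 2570 CPM and 1340 CPM, with a fold change of -0.01 ± 0.29 (95% interval -0.68 to 0.66). At an offset of 15 h, 4 of the 6 were called lower in post-dauer larvae, with a list median of -1.61.

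Read list by list, the nearest continuous hour differed between tissues. For oogenesis genes it was 3 h after the partner at 17 h and 2 h after it at 18, 19 and 20 h. For early germline genes the values at these hours were 3, 2, 3 and 2 h, and for spermatogenesis genes 2, 2, 3 and 2 h. For molting and precuticle matrix genes it was 0 h at 18 h and 1 h at 19, 20 and 21 h, while at 17 h the nearest hour was 24 h, in the cycle before. For vitellogenin genes it was the partner itself at all 6 hours. The last continuous hour is 36 h, which caps these values at 3 h at 19 h, 2 h at 20 h and 1 h at 21 h. These matches are descriptions, with no test of the difference between lists.

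**Figure D3:**
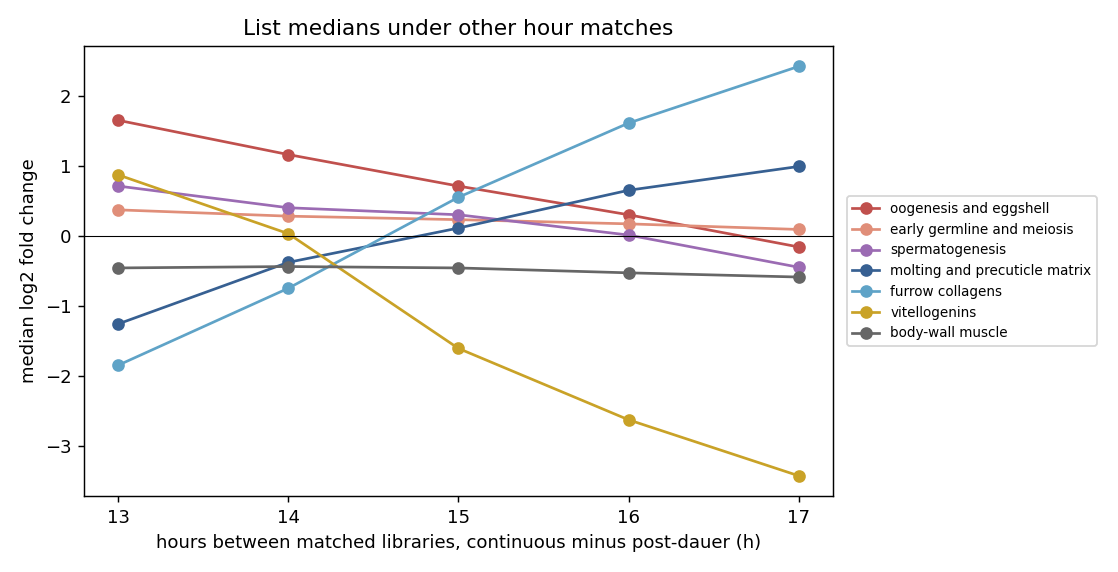
Median log2 fold change of 7 gene lists in the second cycle, with post-dauer libraries matched to continuous ones 13 to 17 sample-name hours later. At 15, 16 and 17 h the continuous hours stay 31 to 36, and the post-dauer hours become 16 to 21, 15 to 20 and 14 to 19. At 13 h post-dauer 17 to 22 h is set against continuous 30 to 35 h. The oogenesis list crosses 0 between 16 and 17 h, the molting list between 14 and 15 h and the vitellogenins between 14 and 15 h in the opposite direction, while body-wall muscle stays below 0 throughout.

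The list median of body-wall muscle moved farther towards 0 than that of any other list plotted. In the first cycle 17 of 20 muscle genes were called lower in post-dauer larvae, with a median of -1.68 and 1 gene within 2-fold. In the second cycle none was called and all 20 lay within 2-fold, with a median of -0.44. Muscle genes made up 0.301%, 1.26% and 1.54% of the reads in the lowest, median and highest post-dauer library of the first cycle and 1.65%, 1.94% and 2.08% in the second. The continuous libraries held 2.27% to 2.75% and 2.29% to 2.54%, so the groups still did not overlap in the second cycle. This was not particular to muscle. Shares of respiratory chain genes, at 1.36% to 1.49% against 1.53% to 1.78%, did not overlap there either. Nor did those of small RNA pathway genes, higher in post-dauer larvae at 0.357% to 0.398% against 0.271% to 0.318%.

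The muscle myosin gene unc-54 stood at 359, 3260 and 4380 CPM in the first post-dauer cycle against 5820, 6480 and 7700 CPM, and the groups did not overlap. In the second cycle it stood at 4760, 5600 and 6020 CPM against 5980, 6150 and 6240 CPM, with a log2 fold change of -0.28 ± 0.07 (adjusted p 0.018). The troponin T gene tnt-2 was the farthest apart in the first cycle, at -3.49 ± 0.73, and came to -0.78 ± 0.09 in the second, still without overlap (at most 550 CPM against at least 708 CPM). Without the fold threshold, 16 of the 20 genes were lower in the second cycle at an adjusted p below 0.05. The interaction was called for 3 genes, the actin genes act-1 (1.42) and act-4 (1.02) and the troponin C gene pat-10 (1.32), and for 14 by DESeq2 and 17 at an offset of 15 h. Without the second matched hour 9 muscle genes were called lower in the first cycle, and the interaction was called for none without the pairs of 10 and 18 h, 11 and 19 h or 12 and 20 h, or without the hour as a block.

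Cuticle genes showed how much the match of hours decides. Of the 6 furrow collagens, which pattern the rings of the cuticle, 1 was called lower, dpy-3 (-1.03 ± 0.16), and the list median was -0.75. dpy-7 went from high to low through both windows, from 174 to 1.72 CPM in post-dauer larvae and from 457 to 4.53 CPM in continuous ones, with medians of 14.2 CPM and 18.8 CPM. At 15 h no furrow collagen was called and the median was 0.55. All 6 were called lower in the first cycle, with a median of -1.59, but none at offsets of 13 or 15 h or without the hour as a block, and the interaction was called for none.

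Over all genes 1.64% were called lower and 1.82% higher. Of 14 other body-shape collagens 3 were called lower, rol-8, dpy-4 and bli-2, and the list median was -0.86. At 15 h none was called and the median was 0.00. Of 115 genes named col, 11 were called lower and none higher, among them col-38 (1410 CPM against 2360 CPM on average, -1.25) and col-152 (-1.66 ± 0.48). At 15 h there were 21 lower and 1 higher. Reads of near-identical collagens may be shared between them.

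Of 12 molting regulators none was called and 10 lay within 2-fold, near the 83.8% of all genes. The nuclear receptor gene nhr-23, needed for molting, stood at 49.8, 55.3 and 64.3 CPM against 41.2, 43.1 and 58 CPM (0.17 ± 0.07). The period homologue lin-42 had a fold change of -0.91 ± 0.16 at 14 h and 0.02 at 15 h. Of 24 molting and precuticle matrix genes none was called, 18 lay within 2-fold and all 24 lay below 0. Of 40 hedgehog-related genes, which encode secreted proteins of the epidermis, 2 were called lower, grd-11 and grl-15, and 14 lay within 2-fold, a smaller share than over all genes. Of 25 patched-related genes ptr-22 was called higher and 19 lay within 2-fold, and of 31 astacin proteases 1 was called higher and 2 lower.

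The trend of the difference within the 6 hours was tested as well. It was called rising for 162 genes (1.09%) and falling for 987 (6.61%), the latter with 43 of 115 col genes, 16 of 36 spermatogenesis genes and 6 of 16 major sperm protein genes. At 15 h the falling count was 45, and without the first matched hour no gene was called in either direction.

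Genes of the dauer decision were close to level. Dauer entry is set by TGF-beta and insulin signals that meet at steroid hormone synthesis and the nuclear receptor gene daf-12. All 16 genes of the TGF-beta and steroid branch lay within 2-fold, and 9 of 10 from the insulin receptor to the FOXO gene daf-16. So did 83.8% of all genes, so this closeness is not particular to them. daf-12 stood at 24.3, 24.8 and 28.1 CPM against 23.6, 26.8 and 34.3 CPM (-0.26 ± 0.09), and daf-16 at 97, 105 and 122 CPM against 99.4, 107 and 123 CPM (-0.14 ± 0.07). Of 24 insulin-like peptide genes tested 15 lay within 2-fold, a smaller share than over all genes, and ins-31 and ins-5 were called lower. ins-31 stood at 0.231, 0.664 and 1.32 CPM against 2.07, 4.06 and 8.03 CPM, with no overlap (-2.78 ± 0.19).

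Of 22 genes of dauer and stress resistance 3 were called lower, beside 1.64% of all genes, and 11 lay within 2-fold, beside 83.8%. The metallothionein gene mtl-2, which binds metals in the intestine, came much closer: it stood at 4.9, 6.06 and 10.6 CPM in the first post-dauer cycle against 63.5, 115 and 145 CPM. In the second cycle it stood at 47.1, 73.3 and 96.7 CPM against 127, 144 and 166 CPM, still with no overlap. Its log2 fold change went from -4.22 ± 0.29 to -1.16 ± 0.09, with an interaction of 3.09 ± 0.32 (adjusted p 0.00162). The other genes called were dod-3 (-1.15 ± 0.28) and the small heat shock gene hsp-12.3 (-1.12 ± 0.15). The heat shock genes hsp-70 (0.88 ± 0.16) and sip-1 (0.95 ± 0.11) lay above 0, below the fold threshold.

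No gene was called in most metabolic, housekeeping and neuronal lists. All 79 ribosomal protein genes, all 35 of the respiratory chain and all 10 housekeeping controls lay within 2-fold, as did 26 of 27 neuronal genes and all 18 sensory signalling genes tested, beside 83.8% of all genes. So did 80 of 91 neuropeptide genes, 9 of 10 pharyngeal, 16 of 17 vulval and 15 of 17 intestinal genes, and 12 of 14 of the glyoxylate cycle, gluconeogenesis and trehalose synthesis, with none called in any of these lists. Without the fold threshold, 27 of the 35 respiratory chain genes, 11 of the 17 intestinal, 13 of the 27 neuronal and 16 of the 79 ribosomal protein genes were lower at an adjusted p below 0.05. Of 8 seam cell genes 3 did, and of 65 abu, pqn and phat genes 41, again with none called. Of 28 fat metabolism genes 25 did, and fat-7, which encodes a fatty acid desaturase, was called lower, at 3.55, 9.61 and 13.7 CPM against 10.6, 21.9 and 27.1 CPM (-1.35 ± 0.18). At an offset of 15 h fat-7 stood at -0.94, below the fold threshold. The peroxisomal acyl-CoA oxidase gene acox-1.2 was lower in both cycles, at -3.56 ± 0.41 and -1.68 ± 0.25, and its groups overlapped only in the second. Of 185 nuclear receptor genes 168 lay within 2-fold and 2 were called lower, nhr-234 (-1.51 ± 0.20) and nhr-235 (-2.04 ± 0.57). At offsets of 15 and 16 h nhr-234 stood at -0.74 and 0.13.

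**Figure D4:**
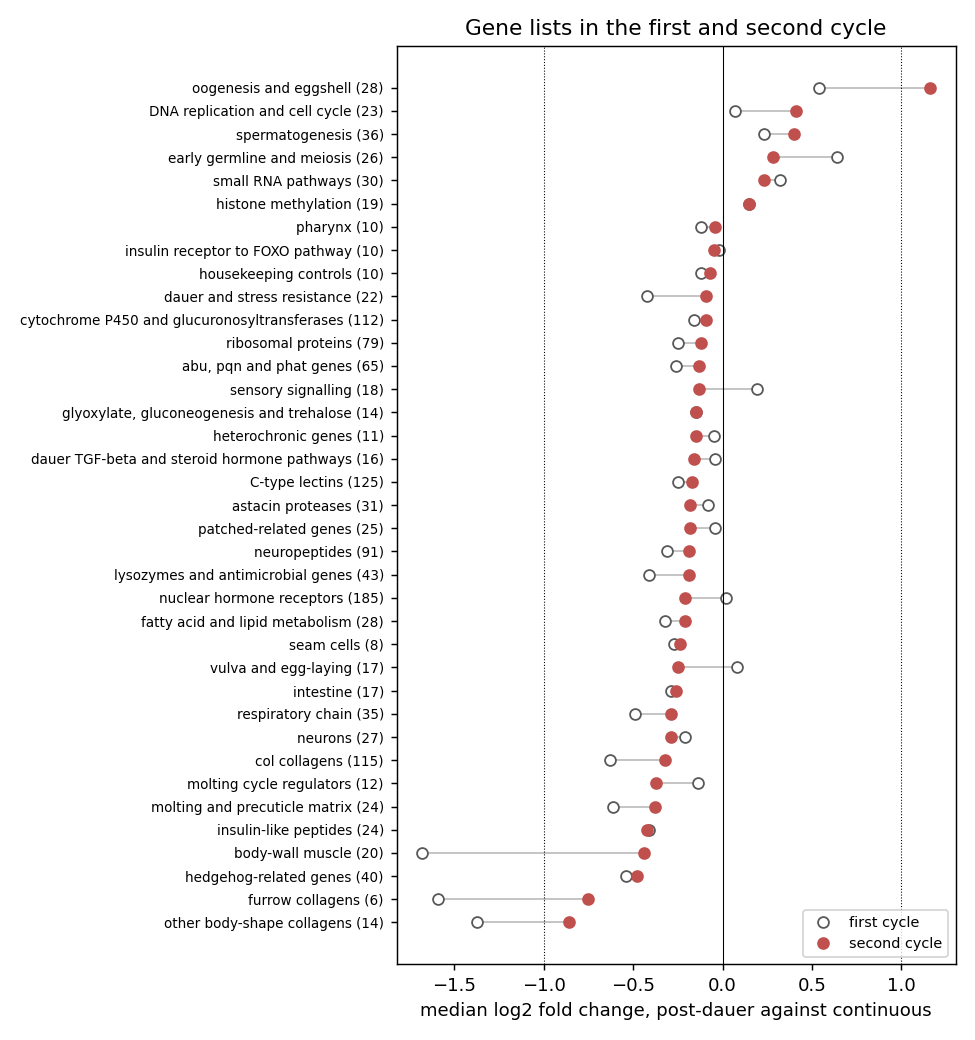
Median log2 fold change of each gene list with at least 6 genes tested in each cycle, first cycle open and second filled, with the number of genes tested in the second cycle in brackets and dotted lines at 2-fold. Body-wall muscle, furrow collagens and other body-shape collagens move towards 0 from the first to the second cycle, and oogenesis moves away from it.

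Genes of defence and detoxification scattered in both directions. Of 125 C-type lectin genes 7 were called higher and 16 lower, both larger shares than the 1.82% and 1.64% over all genes. clec-138 stood at 0.0837, 0.354 and 0.539 CPM against 1.54, 2.59 and 5.13 CPM, with no overlap (-3.26 ± 0.23), and clec-197 did not overlap either (-3.17 ± 0.20). The higher ones included clec-87, at 32.3, 142 and 426 CPM against 6.54, 26.4 and 108 CPM (2.16 ± 0.08), where the difference was larger than in the first cycle (0.89 ± 0.14, interaction 1.29, adjusted p 0.0023). Of 112 cytochrome P450 and glucuronosyltransferase genes 5 were called higher and 2 lower, the latter near the share over all genes. cyp-35B2 was the most distant, at 2.46 CPM against 0.0683 CPM on median. Of 43 lysozyme and antimicrobial genes 4 were called higher and 1 lower, all with means below 5 CPM.

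The remaining named genes at the ends of the ranking belonged to few common lists. Among those higher, far-3, which encodes a fatty acid and retinol binding protein, stood at 12, 15.2 and 19.7 CPM against 2.35, 3.87 and 4.68 CPM, with no overlap (2.00 ± 0.09). oac-10 (2.29 ± 0.52), the astacin protease gene nas-3 (2.02 ± 0.32) and the F-box gene fbxa-158 (1.94 ± 0.20) were also higher in all 6 hours. Among those lower, the protease gene try-8 stood at 0.46, 0.921 and 1.44 CPM against 3.2, 5.82 and 10.6 CPM, again with no overlap (-2.87 ± 0.13). nspa-8 (-2.47 ± 0.17), the ferritin gene ftn-1 (-1.59 ± 0.22), the glucuronosyltransferase gene ugt-65 (-1.54 ± 0.15) and pud-3 (-1.49 ± 0.21) were lower in all 6 hours.

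A small set of genes had a pulse in continuous larvae from 29 to 36 h whose highest level was at least 8.84 times that of post-dauer larvae from 15 to 22 h. The F-box gene fbxo-11.2 (chromosome III, 1046261 to 1053242, build WBcel235) peaked at 438 CPM at 32 h in continuous larvae and, within these hours, at 44.2 CPM at 16 h in post-dauer larvae, a ratio of 9.92. Over the whole post-dauer course its highest level was 60.7 CPM, at 7 h. Its fold change went from -0.27 ± 0.22 in the first cycle to -3.49 ± 0.30 in the second (interaction -3.18 ± 0.39, adjusted p 0.00272). gly-1, of a glycosyltransferase family, peaked at 22.9 CPM at 32 h against 2.59 CPM at 17 h.

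Chosen after their values were seen, 3 genes without a name had the same pulse. Y71G12B.18 on chromosome I peaked at 123 CPM at 32 h against 10.1 CPM at 17 h. D1014.6 and D1014.7, which lie next to each other on chromosome V (8121168 to 8123470 and 8118264 to 8120417), peaked at 111 CPM and 81 CPM against 10.3 CPM and 8.16 CPM at these same hours. At 15 h their log2 fold changes were -3.34, -3.27 and -3.16, after -4.07, -3.96 and -3.92 at 14 h. In the 7 libraries of continuously grown glp-4(bn2) mutants, taken from 40 to 52 h, their highest levels were 3.63, 2.39 and 2.27 CPM.

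Other genes chosen after their values were seen differed throughout both cycles. F13B6.3 (chromosome IV, 7461966 to 7465957) had 0 to 9 reads in each of the 22 post-dauer libraries against 338 to 600 in each of 16 continuous ones. In the second cycle it stood at 0.0418, 0.0714 and 0.139 CPM against 10.3, 12.4 and 13 CPM (-7.31 ± 0.31), much as in the first (-7.66 ± 0.55). R05H10.7 was higher, at 16.6, 49.1 and 57.1 CPM against 0.564, 1.78 and 6.92 CPM (4.11 ± 0.56, after 6.08 ± 0.98), and K10G4.5 at 5.74, 13.3 and 17 CPM against 0.514, 1.78 and 2.53 CPM (2.84 ± 0.14, after 3.12 ± 0.25). Y48E1B.8 was lower in both cycles, at -6.70 ± 1.14 and -3.28 ± 0.30. None of these 4 genes overlapped between groups in either cycle, which is no separate result, since they were chosen with these values known. The share of all genes without overlap was not counted. The glp-4(bn2) worms held 14 to 26 CPM of F13B6.3 and 11 to 19.3 CPM of K10G4.5.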

How the data were processed

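Polyadenylated RNA of whole worms was sequenced from stranded mRNA libraries, per the labels' protocols. The table deposited by the authors held raw read counts for 20182 genes and 45 libraries. No label or header names the aligner, the counting tool or the build. A second deposited table of log2 values, scaled per course, was not used. Names matched 18778 identifiers (93.0%), and coordinates are those of WBcel235, which may not be the build counted on. Libraries were grouped by the hours in their titles.

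Counts were fitted with edgeR 4.0.16 (R 4.3.3), with TMM factors, its filter on low counts (minimum count 10) and the quasi-likelihood F-test, with matched hour and course as terms. The difference between cycles was the interaction of course and cycle, and the trend that of course and hour over the 5 h span, both called at 2-fold. Standard errors and 95% intervals come from the same fit, with a prior count of 0.125. Distances used log2(CPM + 1). Scripts were tested on simulated data. Among 66 pairs of the 12 libraries, the closest (18 h with 33 h) had a chi-square per gene of 31.4, so none was a copy of another.

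The comparison, its members and the 41 gene lists were chosen with earlier results of these data known; 10 list entries had no match. Genes are named by rule: the 10 largest called changes in each direction at 5 CPM or more, a regular symbol and 6 hours of one sign; the 2 largest of each list with at least 3 called; the 5 smallest adjusted p-values between cycles at 5 CPM or more; and a set of general markers. Other list members named as ends, calls or examples, and 8 genes outside the lists, were chosen after their values were seen. Alternatives were RLE factors, library size alone, other filters, DESeq2 1.42.0, limma 3.58.1 (voom), no hour block, offsets of 13 and 15 h, and leaving out each matched hour. Offsets of 16 and 17 h were added after the data were seen.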

Additional observations from a re-analysis of the deposited data

Results flagged for a closer look

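In single groups of 6 libraries, 1 library stood far from the others for 11 genes. At 17 h, the first post-dauer hour of the window, this was gly-1 at 2.59 CPM (next 0.832), col-47 at 6.65 CPM (1.76), dpy-7 at 174 CPM (64.9), nas-37 at 302 CPM (118), bli-1 at 1560 CPM (583) and Y48E1B.8 at 6.15 CPM (2.17). At 31 h, the first continuous hour of the window, it was col-47 at 15 CPM (3.97), dpy-7 at 457 CPM (101) and nhr-23 at 58 CPM (46.2). At 36 h it was meg-1 at 6.92 CPM (2.79) and lin-28 at 23.8 CPM (20.2). Within the windows it was hsp-12.6 at 21 h, at 0.911 CPM, and cut-1 at 33 h, at 0.5 CPM. The first and last hours of a window are the ends of a time course, and its values are not replicates of one state. The rate that chance gives for replicates, about 1 group in 20, therefore does not apply to them.

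The difference between courses changed between the cycles for 12 of the genes named, by edgeR's interaction test with Benjamini-Hochberg adjustment. It was more positive in the second cycle for clec-87 (1.29), pos-1 (1.27), puf-5 (1.32), cpg-2 (1.12), puf-3 (1.26), grif-1 (1.07), lin-41 (1.13) and T01C3.3 (1.34), the last chosen after its values were seen. It was less negative for mtl-2 (3.09) and ttr-45 (1.82). It was more negative for fbxo-11.2 (-3.18) and D1014.7 (-4.31), also chosen after its values were seen. pos-1, puf-3, grif-1, mtl-2 and ttr-45 were named for the smallest adjusted p-values of this same test, so their presence here is no separate result. Over all genes the interaction was called for 109 of 15360 (0.71%).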

How the results depend on the processing

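Leaving out the matched hour as a block, which the labels do not give as a replicate number, left 71 genes higher and 134 lower in the second cycle, 187 lower in the first and 14 called between cycles. At an offset of 13 h, 546 genes were higher and 385 lower, 191 were lower in the first cycle, the trend was rising for 543 and falling for 2224, and the median distance was 0.325. At 15 h, 167 were higher, 557 were lower in the first cycle, 1039 were called between cycles, the trend was rising for 328 and falling for 45, and the distance was 0.2. At 16 and 17 h, both added after the data were seen, 158 and 146 were higher. With a mean of 5 CPM required, 125 were higher and 81 lower, 36 were higher in the first cycle and 98 trends rose; with no filter 380 were lower. Library size alone gave 307 higher in the first cycle, and DESeq2 gave 293 between cycles. The cause of these shifts was not tested.

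Leaving out 1 matched hour at a time gave 235 to 302 higher, 202 to 338 lower and 11823 to 12160 within 2-fold in the second cycle, 128 to 165 higher and 199 to 396 lower in the first, 32 to 204 called between cycles, and 0 to 129 rising and 0 to 1029 falling trends. Both zeros are without the first matched hour, where edgeR's adjusted p passed for no gene with the fold threshold.

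Named genes called at 14 h changed sign under no alternative other than offsets of 15 to 17 h. Genes not called also changed sign, at 15 h vit-2 (-0.61), dpy-7 (0.51), bli-1 (0.29), nas-37 (0.37), mlt-10 (0.10) and lin-42 (0.02), and, for values near 0 such as those of vit-6, icl-1, lin-14, nhr-23 and col-19 (-0.14 without the block), under other settings too. col-19 was at -1.63, -3.44 and -5.74 and col-47 at 0.24, 1.32 and 2.00 at these offsets. At 16 and 17 h nhr-234 was at 0.13 and 0.68 and rol-8 at 0.21 and 0.16. At 17 h meg-1 was at -0.77, clec-87 at -0.08, pos-1 at -0.07, puf-5 at -0.45, cpg-2 at -0.24, cpg-3 at -0.44, puf-3 at -0.23 and T01C3.3 at -0.14. Of the 516 genes called, 499 were also called with RLE factors, 501 by DESeq2, 477 by limma and 202 without the block.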
